A study of Mus musculus with 6 samples.

Results

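Oxtr, Tacr1 and Barx2 are 3 of the 16494 genes measured by single-cell RNA sequencing of lower abdominal muscle (LAM) of mice. They were chosen because their levels differed between wild-type (WT) and Aromhum mice in these same data, so every WT and Aromhum value of the 3 genes is a description and carries no test. Aromhum mice carry the human aromatase gene under its native tissue promoters. Aromatase converts androgens to estrogens, and male Aromhum mice develop scrotal hernias. LAM tissue came from 3 WT mice (WT1 to WT3) and 3 Aromhum mice (Arom1 to Arom3), all males on the FVB/N strain at 9 to 10 weeks of age. The study processed 1 WT mouse and 1 Aromhum littermate on each of its dates, but does not say that the mouse numbers follow the dates. The tissue was minced and digested with enzymes, so the data describe cells that survived dissociation.

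Oxtr encodes the receptor for oxytocin, and Tacr1 encodes the neurokinin-1 receptor for substance P, a tachykinin peptide. Both are receptors of the cell surface that signal through Gq proteins, phospholipase C and calcium. Oxtr is best known from the uterus, where estrogen raises it before birth, and from mammary myoepithelium and the brain. Tacr1 is known from neurons and from the endothelium of small veins, where substance P opens the vessel wall to plasma. Barx2 encodes a homeobox transcription factor that acts in muscle precursors, in cartilage and in other mesenchyme. Esr1, which encodes estrogen receptor alpha, was followed beside them.

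The 3 genes lie on 2 chromosomes of the mouse genome (build GRCm38, GENCODE vM21 models). Oxtr lies on the minus strand at chr6:112473683-112489943, Tacr1 on the plus strand at chr6:82402334-82560104, and Barx2 on the minus strand at chr9:31846044-31913462. Windows from 250 bases before to 50 bases after the RefSeq starts of Oxtr and Tacr1 (GRCm38.p6) were searched on both strands. The letters searched were AGGTCA, the core repeat of an estrogen response element, and the full palindromic element. Also searched were the AP-1 motif TGACTCA, the motif of a GC box, GGGCGG, and the TATA motif TATAAA. The Oxtr window held AGGTCA once, at position -98 from the start, and GGGCGG once on the opposite strand, at position -49. The GENCODE model of Oxtr starts farther upstream, so both sites lie within it. The sites are the matches found in this window. They are written 5′ to 3′ on the minus strand of chr6:112489906-112489935 and chr6:112489857-112489886, with the match in capitals.
Oxtr AGGTCA site: gagaggacaggcAGGTCAgtgccagagtgc
Oxtr GGGCGG site, opposite strand: gagcgccgggccCCGCCCcacgtgccacac
AGGTCA occurred in 16.3% of 32851 windows of this length and GGGCGG in 35.7%. The full element occurred in 0.07% of them and in neither gene. None of the letters searched occurred in the Tacr1 window. A match is a stretch of letters and was not shown to be bound.

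The table held 7905 to 10820 barcodes per WT mouse and 8979 to 13764 per Aromhum mouse, 63647 in all. A UMI (unique molecular identifier) marks 1 captured RNA molecule. The median UMI count per barcode was 4728.5 to 5897 in WT and 6673 to 8727 in Aromhum mice, and 38.0% to 68.2% of WT barcodes against 27.6% to 30.9% of Aromhum barcodes had over 5% mitochondrial UMIs. The human transgene CYP19A1 had 0 UMIs in each WT mouse and 770, 797 and 787 in Arom1 to Arom3, as the labels say. Cells were grouped by clustering with the 3 genes and Esr1 left out. The fibroblast-like ones went through a second clustering, whose groups are called fibroblast clusters below. Fibroblast-like clusters held 3565, 2440 and 1582 WT cells and 4898, 6826 and 3473 Aromhum cells. All 7 fibroblast markers were above 0 in them, at a summed 44753 to 46791 CPM (the UMIs of a gene as a share of all UMIs of these cells, in millionths) in WT and 44638 to 50925 CPM in Aromhum mice. The sums of 7 endothelial markers in these cells were 75.6 to 112 and 67.0 to 84.9 CPM. Of 8 marker lists of other types, 3 did not overlap between genotypes there: macrophage markers summed to 8.56 to 10.7 CPM in WT and 14.6 to 25.5 CPM in Aromhum mice, muscle stem cell and myoblast (MuSC/myoblast) markers to 10.2 to 13.6 and 6.19 to 9.91 CPM, and glial markers to 13.5 to 33.8 and 10.9 to 11.2 CPM. Smooth muscle markers summed to 40.5 to 114 and 85.3 to 321 CPM. The part of these types in the fibroblast values was not tested. A barcode sequence occurred in more than 1 library 471 times.

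The zeros of this table had to be read first. In each library almost every gene was either at 0 or found in at least 20 to 24 cells. The lowest number of cells held by 50 or more genes was 21, 22 and 20 in WT1 to WT3, and 23, 24 and 20 in Arom1 to Arom3. Between 1 cell and that number lay only 7, 204 and 18 genes in the WT libraries and 5, 4 and 4 in the Aromhum libraries. At 0 stood 1101 to 1709 genes per WT library and 1071 to 1125 per Aromhum library, and 2362 genes were at 0 in at least 1 library. Oxtr was at 0 in WT1 and WT3, and Tacr1 in WT2 and WT3. These zeros therefore allow up to 20 and 19 cells with Oxtr, and up to 21 and 19 cells with Tacr1, and are not a measured absence. Barx2 and Esr1 were above 0 in all 6 libraries.

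**Figure D1:**
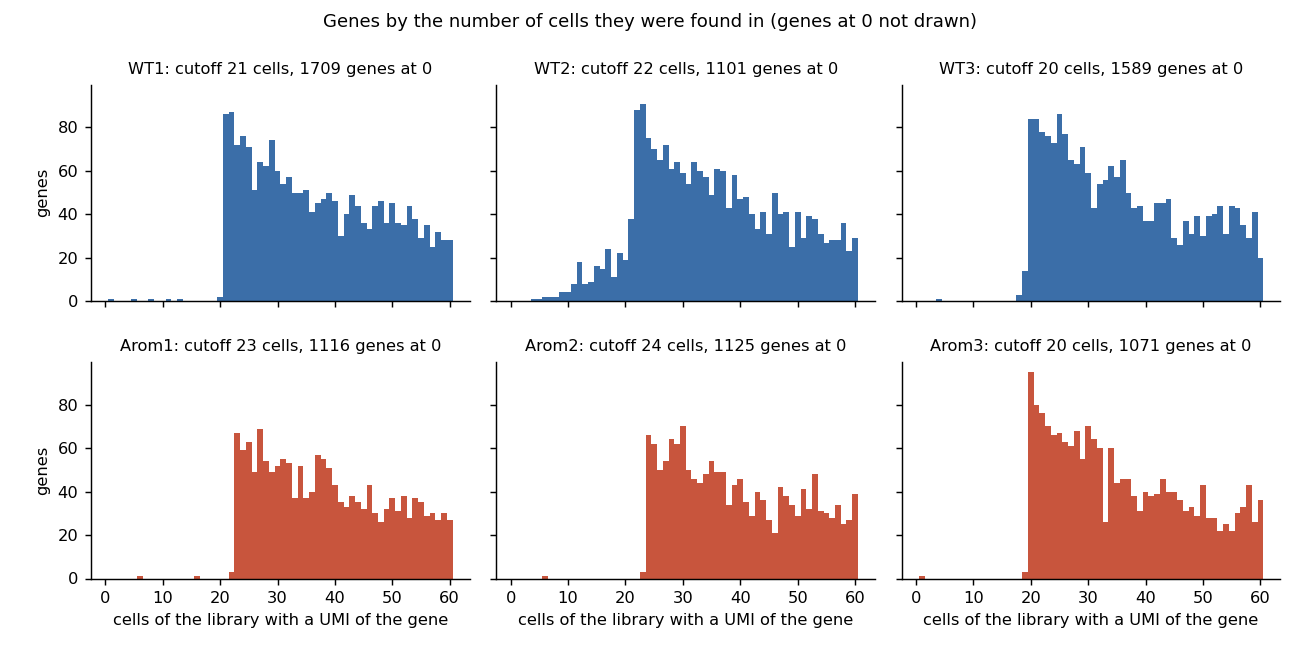
Number of genes (y axis) by the number of cells of a library in which they had a UMI (x axis), for each of the 6 libraries; genes at 0 are not drawn. The counts step up at 20 to 24 cells in every library, and WT2 alone has a shoulder of 204 genes below its step.

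Oxtr was found almost entirely in Aromhum mice and, there, almost entirely in fibroblast-like cells. The 6 libraries held 0, 33 and 0 Oxtr UMIs in WT1 to WT3 and 2089, 2500 and 278 in Arom1 to Arom3. Of these, fibroblast-like cells held 0, 7 and 0 in WT and 1970, 2357 and 267 in Aromhum mice, which is 94.9% ± 1.01 (SD, n = 3) of the Aromhum UMIs. Over those cells the Oxtr level was 0, 0.300 and 0 CPM in WT and 30.0, 33.1 and 5.44 CPM in Aromhum mice. The genotypes did not overlap, and Arom3 was well below the other Aromhum mice. At least 1 Oxtr UMI was found in 0%, 0.246% and 0% of WT and in 11.3%, 11.1% and 2.97% of Aromhum fibroblast-like cells. Within the study's limits on genes, UMIs and mitochondrial share per cell, 36, 55 and 8 Oxtr UMIs of Arom1 to Arom3 were left. There 13, 27 and 5 of 1273, 2781 and 604 Aromhum fibroblast-like cells had Oxtr, and no WT fibroblast-like cell did. Without the upper limit on genes 1706, 2045 and 261 UMIs were left.

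Read with the zeros at the most they allow, the separation in all fibroblast-like cells held. If all the cells that the cutoff could hide had been fibroblast-like, the highest WT share would be 1.2%, in WT3, against 2.97% in Arom3, a ratio of 2.47. The ratio of the mean shares would be at least 12.7. Over all barcodes the lowest Aromhum share, 1.26%, was 5.24 times the highest possible WT share, 0.240%. The fitted log2 fold change of Oxtr in fibroblast-like cells was 7.82 (SE 1.15, edgeR, no test). It was 4.72 with the WT zeros at the most cells they allow, so the fitted size depends on these zeros. In such fits, here and below, each of these cells was given the mean UMIs of WT cells with the gene. That mean was 1.32 for Oxtr, from WT2 alone, and 1.5 for Tacr1, from WT1 alone. The cutoff limits cells and not UMIs, so the hidden WT counts could be higher. DESeq2 gave 7.87 with a standard error of 1.77. The SE beside an edgeR value, here and below, is the absolute fold change divided by the square root of its F statistic. It is not a standard error taken from the model. For Oxtr, Tacr1 and Barx2, which were chosen for their difference between the genotypes, it is a description and supports no test. Of the 13974 genes tested in fibroblast-like cells 12.8% were called, 7.43% as higher and 5.39% as lower in Aromhum mice, and 20.5% had every Aromhum mouse above every WT mouse. Oxtr and Barx2 are in that last share because they were chosen for it. The number of calls changed with the mice in the fit: 1791 genes were called, 4086 without Arom3 and 6 to 120 without any 1 of the other mice.

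**Figure D2:**
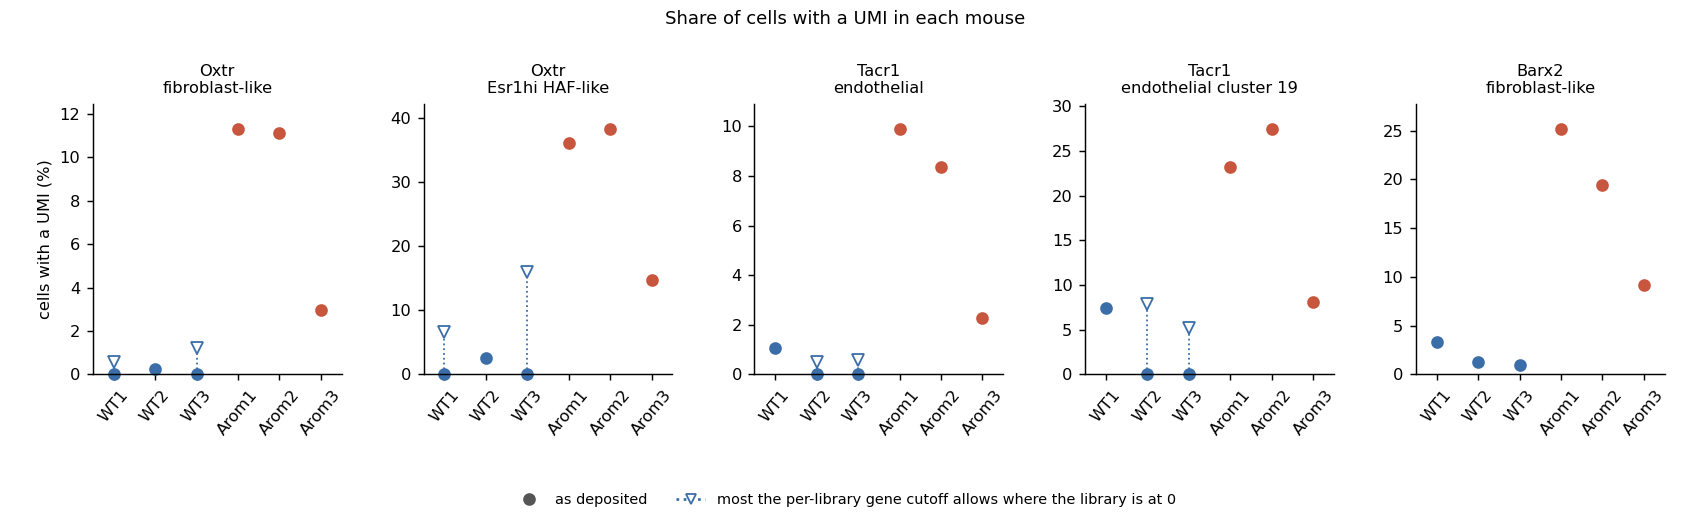
Percent of cells with at least 1 UMI (y axis) in each mouse (x axis) for 5 pairs of gene and cell group; filled points are the deposited values, and open triangles the highest share that the per-library cutoff allows where a WT library is at 0. In fibroblast-like cells Arom3 (2.97%) lies above the highest triangle (1.2%), whereas in Esr1hi HAF-like cells Arom3 (14.8%) lies below the WT3 triangle (16.0%).

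Within the fibroblasts Oxtr was concentrated in the class of cells richest in Esr1, though not in each of its clusters. The clusters named Esr1hi HAF-like (hernia-associated fibroblasts with high Esr1, named from markers such as Pnoc, Ren1, Nppc and Pgr) held 300, 156 and 119 WT cells and 1432, 1872 and 630 Aromhum cells. They held 90.1% ± 0.975 (SD, n = 3) of all Aromhum Oxtr UMIs. The Oxtr level in them was 0, 2.72 and 0 CPM in WT and 67.2, 76.3 and 18.2 CPM in Aromhum mice. It was found in 36.0%, 38.4% and 14.8% of the Aromhum cells. With so few WT cells the zeros matter: WT3 could hide up to 16.0% of its 119 cells, above the 14.8% of Arom3. In this group the fitted log2 fold change fell from 6.19 (SE 1.01) to 2.65 (SE 0.69) with the WT zeros at the most they allow. Without WT2, the only WT mouse above 0, it was 12.70.

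The genotypes filled this class from different clusters. Fibroblast cluster 4, led by Igfbp2, Scg5 and Nnat, held 276, 154 and 117 of the WT cells and 18, 45 and 110 of the Aromhum cells. Fibroblast cluster 5, led by Uts2, Ramp3 and Nrg1, held 23, 2 and 2 WT cells and 1066, 1243 and 305 Aromhum cells. Fibroblast cluster 17, led by Nppc, Wfdc2 and Pnoc, held 1 WT cell and 348, 584 and 215 Aromhum cells. Within this class the genotypes could thus be compared at 100 or more WT cells per mouse in fibroblast cluster 4 only.

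In Arom1 and Arom2, Oxtr was highest in fibroblast cluster 17, with 104, 105 and 18.9 CPM in Arom1 to Arom3, where 57.5%, 52.6% and 18.6% of cells had it. In fibroblast cluster 5 it was 55.7, 65.8 and 20.8 CPM, in Arom3 above fibroblast cluster 17. In fibroblast cluster 4 the Aromhum mice had 6.65, 0 and 5.67 CPM and the WT mice 0, 1.70 and 0 CPM, from 14 UMIs in all. Esr1 in fibroblast cluster 4 lay between its neighbours in each Aromhum mouse, below fibroblast cluster 17 and above fibroblast cluster 5. It stood there at 296, 310 and 279 CPM in WT and 199, 262 and 304 CPM in Aromhum mice, against 250, 276 and 410 CPM in fibroblast cluster 17 and 135, 156 and 281 CPM in fibroblast cluster 5 of Aromhum mice. The Oxtr zeros of WT1 and WT3 in fibroblast cluster 4 are subject to the cutoff on genes, so among WT mice only the value of WT2 is measured there. Fibroblast cluster 3, whose leading genes Fabp4, Cldn5 and Cdh5 are endothelial and which stayed unnamed, had 62.7, 38.0 and 9.65 CPM of Oxtr in Aromhum mice, with endothelial markers at 1022 to 1591 CPM.

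**Figure D3:**
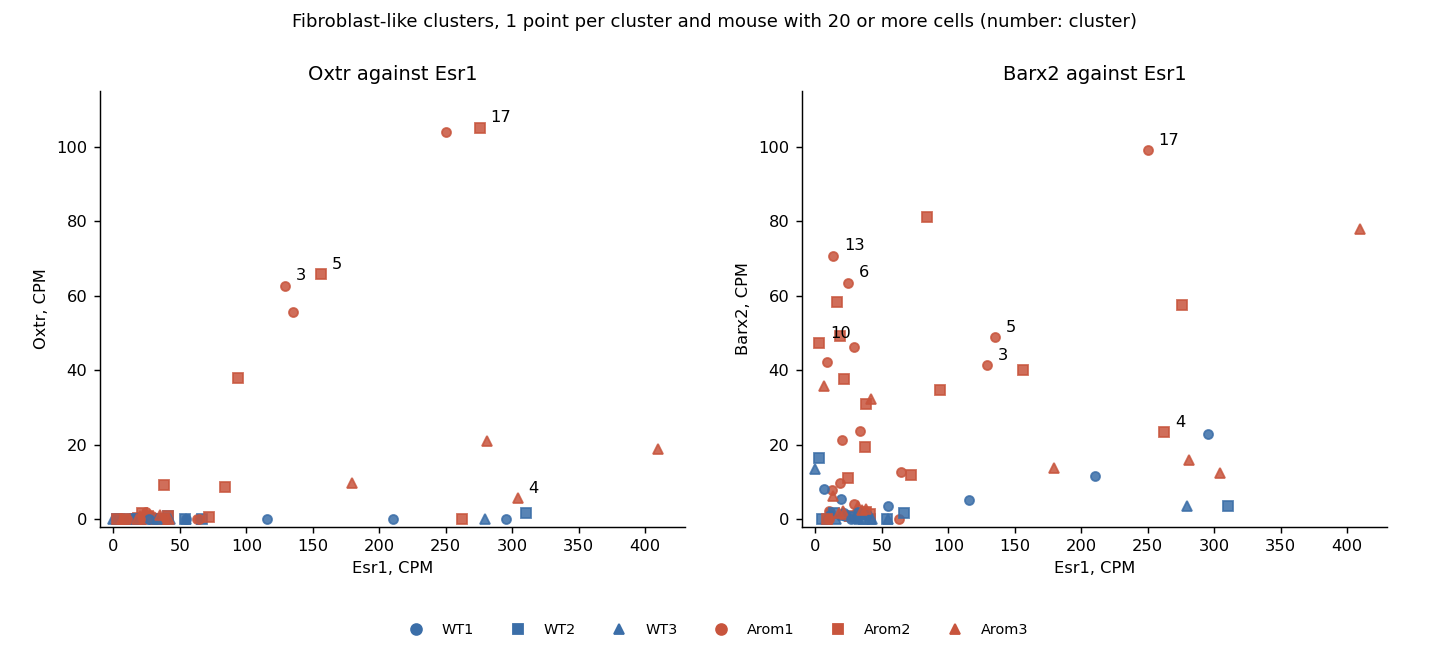
Oxtr (left) and Barx2 (right) level against Esr1 level, both in CPM on linear axes, with 1 point for each fibroblast cluster and mouse with 20 or more cells; blue marks WT, red Aromhum, and numbers name clusters. The WT points of cluster 4 at 279 to 310 CPM of Esr1 have 0, 1.70 and 0 CPM of Oxtr as deposited, where the zeros of WT1 and WT3 are subject to the cutoff, while cluster 17 of Arom1 and Arom2 reaches 104 and 105 CPM; Barx2 is also high at low Esr1, in clusters 6, 10 and 13.

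The other fibroblast-like cells had 0, 0.0929 and 0 CPM of Oxtr in WT and 2.90, 2.00 and 0.452 CPM in Aromhum mice. Fibroblast cluster 3, with its endothelial genes, held 82 of the 110 UMIs of Arom1, 47 of the 83 of Arom2 and 12 of the 16 of Arom3 behind these levels. With doublets left out Oxtr did not pass the filter in the other fibroblast-like cells. Mmp3hi HAF-like cells, which are led by acute-phase genes such as Saa3 and Hp, had 2.02 and 1.61 CPM in Arom1 and Arom2. Fibroblast clusters 9 and 14 were left out of the named classes by a score limit set with the data in view. Fibroblast cluster 9 held 4.37% ± 5.60 of WT and 4.28% ± 2.82 of Aromhum fibroblast-like cells (SD, n = 3 each), and fibroblast cluster 14 held 0.415% ± 0.0253 and 8.34% ± 2.42. Neither exceeded 0.720 CPM of Oxtr.

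Outside the fibroblasts Oxtr was sparse. Among named types the mean Aromhum level was 22.8 ± 15.2 CPM in fibroblast-like cells, then 11.7 ± 16.8 in T cells, 7.33 ± 8.50 in smooth muscle and 3.77 ± 3.49 in macrophages (SD, n = 3). T cells and smooth muscle overlapped fibroblast-like cells in this order, but their sums came from few cells. The 20 UMIs of Arom2 T cells lay in 5 cells, and the 33 UMIs of Aromhum smooth muscle in 4 cells. The rest ranged from 0.316 to 2.38 CPM, and no UMI was found in 434 pericytes or 442 lymphatic endothelial cells of Aromhum mice, which allows up to 0.691% and 0.679% of cells with a UMI and sets no limit on cells that express Oxtr. Endothelial cells had it in 0.416%, 0.352% and 0.170% of cells of Arom1 to Arom3, at a median depth of 3116 to 4679 UMIs against 8976 to 12634 in fibroblast-like cells. The endothelial group includes clusters 15 and 20 of all cells, whose high fibroblast markers are given below. Of its 21 Aromhum cells with Oxtr, 18 lay outside cluster 19 of all cells. The part of fibroblast RNA in these values was not tested. Thinned to 2000 UMIs per cell, which kept 7261 of 7587 WT and 14726 of 15197 Aromhum fibroblast-like cells, the shares in Aromhum fibroblast-like cells were 3.58%, 3.29% and 0.531%. In endothelial cells, of which 4773 of 6739 were kept, they were 0.233%, 0.0792% and 0%. WT2 was the only WT mouse with Oxtr above 0. Of its 33 UMIs, 18 lay in 13 MuSC/myoblast cells, at 5.46 CPM, and 7 in fibroblast-like cells. MuSC/myoblast cells held 9 UMIs in Arom2 and 0 in Arom1 and Arom3. The zeros of WT1 and WT3 are subject to the cutoff on genes.

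**Figure D4:**
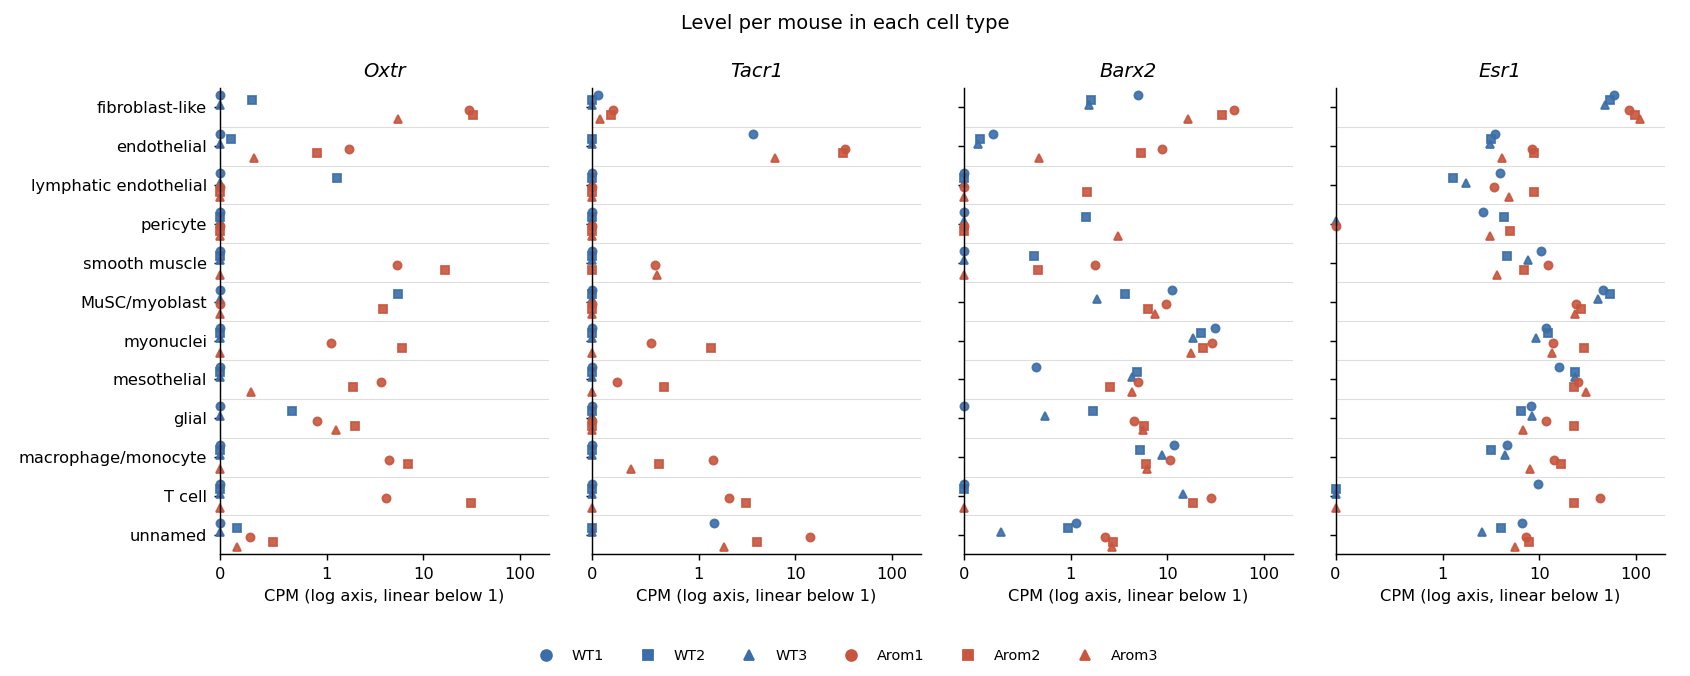
Level of Oxtr, Tacr1, Barx2 and Esr1 in CPM (x axis, logarithmic above 1 and linear below) in each cell type (y axis), with 1 point per mouse; blue marks WT and red Aromhum, and neutrophils (117 cells) are not drawn. Oxtr separates the genotypes in fibroblast-like cells and Tacr1 in endothelial cells, while Barx2 points of both genotypes lie together in myonuclei and macrophages.

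Tacr1 was found in a different cell type. It had 66, 0 and 0 UMIs in WT1 to WT3 and 512, 320 and 114 in Arom1 to Arom3. Endothelial cells held 54, 0 and 0 of them in WT and 427, 274 and 97 in Aromhum mice, which is 83.4%, 85.6% and 85.1% of the Aromhum UMIs. Their level was 3.65, 0 and 0 CPM in WT and 32.9, 31.0 and 6.18 CPM in Aromhum mice. The groups did not overlap, with WT1 the highest WT and Arom3 the lowest Aromhum mouse. Fibroblast-like cells held only 2, 0 and 0 WT and 13, 13 and 4 Aromhum UMIs. That is 0.225%, 0.146% and 0.115% of Aromhum cells, below the 0.537%, 0.338% and 0.391% of macrophages. No Tacr1 UMI was found in 1253 MuSC/myoblast or 877 glial cells of Aromhum mice, which allows up to 0.239% and 0.342% of cells with a UMI and sets no limit on cells that express Tacr1. Tacr1 did not pass the filter on low counts in fibroblast-like cells.

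Most endothelial Tacr1 lay in 1 cluster. Cluster 19 of all cells, whose leading genes Ackr1, Selp and Sele are known from the endothelium of small veins, held 447, 266 and 364 WT and 905, 542 and 607 Aromhum cells. It had 74.8%, 79.4% and 79.8% of the Tacr1 UMIs of Arom1 to Arom3 and 77.3% of those of WT1. Its level was 14.9, 0 and 0 CPM in WT and 65.9, 80.9 and 15.4 CPM in Aromhum mice. WT1 and Arom3 thus stood together, at 7.38% and 8.07% of cells with Tacr1, and WT2 could hide up to 7.89%. Fibroblast markers in cluster 19 summed to 86.0 to 119 CPM in WT and 257 to 354 CPM in Aromhum mice. Pericyte markers summed to 87.3 to 134 and 39.6 to 43.6 CPM, and mesothelial markers to 0.536 to 1.68 and 3.27 to 9.63 CPM. None of these lists overlapped between genotypes. Smooth muscle markers summed to 1404 to 1830 and 872 to 1687 CPM. Their part in the Tacr1 level was not tested. With library scaling by TMM, WT1 (15.6) was above Arom3 (15.3 CPM). The remaining endothelial cells had 0.264, 0 and 0 CPM in WT and 6.15, 3.51 and 0.613 CPM in Aromhum mice. The unnamed cluster 2 of all cells, led by the pericyte genes Rgs5, Cox4i2 and Notch3, followed with 18.5, 5.00 and 2.51 CPM in Aromhum mice and 1.73 CPM in WT1.

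The fitted log2 fold change of Tacr1 was 4.39 (SE 1.14) in endothelial cells and 3.17 (SE 0.86) in cluster 19. In cluster 19 it was 10.74 without WT1, the only WT mouse above 0, and 2.51 to 3.6 without any 1 of the others. With the WT zeros at the most they allow it was 3.38 (SE 0.63) and 2.01 (SE 0.50). DESeq2 gave 4.19 and 3.29, with larger standard errors of 2.58 and 2.42. The mean share of endothelial cells with Tacr1 was at least 9.52 times higher in Aromhum mice. The lowest Aromhum share (2.26%) was 2.16 times the highest WT share (1.05%). Within cluster 19 the ratio of the mean shares was at least 2.87. There the lowest Aromhum share (8.07%) was 1.02 times the highest possible WT share (7.89%). Of the genes tested 14.5% were called in endothelial cells (7.88% higher, 6.6% lower) and 1.36% in cluster 19 (0.907% higher, 0.448% lower). With 1 mouse left out, the 1855 endothelial calls became 102 (without Arom1) to 2497 (without Arom3), and the 127 calls of cluster 19 became 6 (without WT2) to 1066 (without Arom3). The split in cluster 19, 85 higher and 42 lower, turned with DESeq2 (147 and 208), with the replicate number as a block (239 and 333) and without Arom3 (413 and 653). Every Aromhum mouse lay above every WT mouse for 18.8% and 11.9% of them. Cluster 19 held 447 of 3348, 266 of 4069 and 364 of 3202 endothelial cells in WT1 to WT3. In Arom1 to Arom3 it held 905 of 2402, 542 of 1987 and 607 of 2350. The endothelial values thus mix the share of cluster 19 with the level inside it, and the part of each was not tested. Endothelial Tacr1 UMIs numbered 54 in 35 cells of WT1, and 427 in 238, 274 in 166 and 97 in 53 cells of Arom1 to Arom3.

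Barx2 had a base level in WT mice. It had 266, 147 and 69 UMIs in WT1 to WT3 and 3614, 2850 and 950 in Arom1 to Arom3. In WT mice these were spread over types: fibroblast-like cells held 60.2%, 25.9% and 36.2%, and myonuclei, the nuclei or fragments of muscle fibers, 15.8%, 33.3% and 20.3%. In Aromhum mice fibroblast-like cells held 89.5%, 92.9% and 84.7%. Their level was 5.00, 1.63 and 1.56 CPM in WT and 49.3, 37.2 and 16.4 CPM in Aromhum mice, without overlap. The fitted log2 fold change was 3.56 (SE 0.61), or 2.26 (SE 0.56) within the study's limits on genes, UMIs and mitochondrial share per cell. The share of fibroblast-like cells with Barx2 was 3.31%, 1.27% and 0.948% in WT and 25.2%, 19.4% and 9.21% in Aromhum mice. Thinned to 2000 UMIs it was 0.342% ± 0.303 and 4.76% ± 2.45 (SD, n = 3 each).

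The higher Barx2 level reached more fibroblast classes than Oxtr did. Esr1hi HAF-like cells held 48.8% of the Aromhum Barx2 UMIs as a mean of the 3 mice, against 90.1% for Oxtr. Their Barx2 level was 21.8, 3.26 and 3.35 CPM in WT and 61.0, 44.9 and 36.4 CPM in Aromhum mice, a fitted log2 fold change of 2.11 (SE 0.56). WT1 was high among WT mice, and without it the fitted value was 3.90. The other fibroblast-like cells had 2.95, 1.49 and 1.38 CPM in WT and 40.7, 31.7 and 8.60 CPM in Aromhum mice, with a fitted log2 fold change of 3.79 (SE 0.66), or 2.22 (SE 0.61) within the study's limits on genes, UMIs and mitochondrial share per cell. Of the genes tested 14% were called in the former cells (6.64% higher, 7.35% lower) and 1.73% in the latter (0.989% higher, 0.745% lower), and 18.9% and 15.2% had every Aromhum mouse above every WT mouse.

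These cells sat in different clusters in the genotypes, so differences between clusters and between genotypes cannot be told apart in their values: fibroblast cluster 6 held 0.680% of WT fibroblast-like cells as a mean, 12.2% in Arom1, 16.7% in Arom2 and 0.173% in Arom3, and fibroblast cluster 13 held 0.00935% in WT and 10.0%, 15.7% and 0.461% in the Aromhum mice. Single classes showed where this Barx2 lay. Fibroblast cluster 17 had 99.2, 57.4 and 78.0 CPM in Arom1 to Arom3. Mmp3hi HAF-like cells had 63.5 and 37.5 CPM in Arom1 and Arom2 and 1.55 CPM in WT1. Dmkn fibroblast-like cells had 50.6 and 40.6 CPM in Arom1 and Arom2 but 2.13 CPM in Arom3, near the 0 to 0.720 CPM of the WT mice. Tenocyte-like cells, which carry tendon genes such as Tnmd and Fmod, had 4.27, 8.70 and 7.09 CPM in WT and 23.3, 26.8 and 12.8 CPM in Aromhum mice. Within fibroblast cluster 4, the cluster that both genotypes filled, Barx2 was 22.9, 3.40 and 3.46 CPM in WT and 26.6, 23.4 and 12.5 CPM in Aromhum mice. There WT1 lay above Arom3, so the genotypes overlapped.

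Among the other types, Barx2 passed the filter and overlapped between genotypes in 4. Myonuclei had 31.0, 22.2 and 18.6 CPM in WT and 29.3, 23.5 and 17.6 CPM in Aromhum mice, with a fitted log2 fold change of -0.16 (SE 0.25). Macrophages had 11.6, 5.28 and 8.82 against 10.7, 6.09 and 6.23 CPM (-0.11, SE 0.39). MuSC/myoblast cells had 11.3, 3.64 and 1.88 against 9.74, 6.35 and 7.51 CPM (0.45, SE 0.53), and mesothelial cells 0.674, 4.84 and 4.28 against 4.97, 2.54 and 4.29 CPM (0.28, SE 0.55). In glial cells the genotypes did not overlap, at 0, 1.69 and 0.758 against 4.56, 5.80 and 5.60 CPM, but these came from 28 UMIs in all and Barx2 did not pass the filter there. Of all genes tested, 7.23% in myonuclei, 6.21% in macrophages, 12.6% in MuSC/myoblast, 13.4% in mesothelial and 8.24% in glial cells had every Aromhum mouse above every WT mouse. In order of the Aromhum mean, fibroblast-like cells (34.3 ± 16.6 CPM) overlapped myonuclei (23.5 ± 5.82), and T cells (15.8 ± 14.6) overlapped both (SD, n = 3). The remaining named types had means of 7.87 CPM or below.

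Endothelial cells as a whole had 0.271, 0.151 and 0.136 CPM of Barx2 in WT and 8.87, 5.32 and 0.700 CPM in Aromhum mice. These UMIs lay mainly in clusters 15 and 20 of all cells. In cluster 15 the 7 fibroblast markers summed to 26236 to 40451 CPM beside 1837 to 3107 CPM for the 7 endothelial markers. Cluster 19, which had fibroblast markers at only 86.0 to 354 CPM, held 2 Barx2 UMIs in 3131 cells. In cluster 20, led by cell cycle genes, the fibroblast markers summed to 4987 to 6924 CPM in WT and 13884 to 26906 CPM in Aromhum mice. With doublets left out Barx2 did not pass the filter in endothelial cells. Nor did it pass within the study's limits on cells, with or without the upper limit on genes, or at other clustering resolutions (0.4 and 1.2). The part of fibroblast RNA in the endothelial Barx2 level was not tested.

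Among all cells, Esr1 was detected in most Aromhum fibroblast-like cells with Oxtr. Of 1419 such cells 1272 had an Esr1 UMI: 89.9%, 88.8% and 94.2% in Arom1 to Arom3, against 30.8%, 29.0% and 30.6% of the fibroblast-like cells without Oxtr. Within the study's limits on cells, 38.5% of the 13 fibroblast-like cells with Oxtr in Arom1 and 74.1% of the 27 in Arom2 had Esr1, and the 5 cells of Arom3 were left out. In WT2 all 6 fibroblast-like cells with Oxtr had Esr1. Deep cells show both genes more often. Thinned to 2000 UMIs, the shares were 32.9%, 33.6% and 55.6% against 10.3%, 12.7% and 11.8%, so Oxtr cells still had Esr1 more often in each of the 3 mice. Within Esr1hi HAF-like cells the gap was smaller, at 92.7% ± 3.63 and 81.3% ± 10.1 (SD, n = 3). Thinned, these shares were 46.5% ± 16.1 and 33.7% ± 10.2. In the other fibroblast-like cells the unthinned shares were 70.4% ± 1.48 and 18.6% ± 0.928. Thinned, 6 of the 24 other fibroblast-like cells with Oxtr had Esr1, against 4.89% ± 0.710 of those without.

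In co-detection, the gap in Esr1 between cells with and without Barx2 was smaller than for Oxtr in each mouse. Of Aromhum fibroblast-like cells with Barx2, 57.4%, 53.6% and 72.2% had Esr1, against 30.8%, 31.3% and 28.5% of those without. Within the study's limits on cells, 17.7% of the 79 cells with Barx2 in Arom1 and 17.5% of the 211 in Arom2 had Esr1. The 9 cells of Arom3 were left out. Thinned, the shares were 16.8%, 17.3% and 38.0% against 11.7%, 12.8% and 12%. Within Esr1hi HAF-like cells the thinned shares were 23.5%, 28.7% and 55.0% with Barx2 and 26.3%, 32.4% and 43.4% without, lower with Barx2 in Arom1 and Arom2 and higher in Arom3. Barx2 was found in 52.8%, 41.3% and 39.8% of fibroblast-like cells with Oxtr and in 21.7%, 16.7% and 8.28% of those without. Within Esr1hi HAF-like cells the gap was smaller, at 53.9%, 41.8% and 41.9% against 35.4%, 28.5% and 27.6%. These shares were not thinned to an equal depth.

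**Figure D5:**
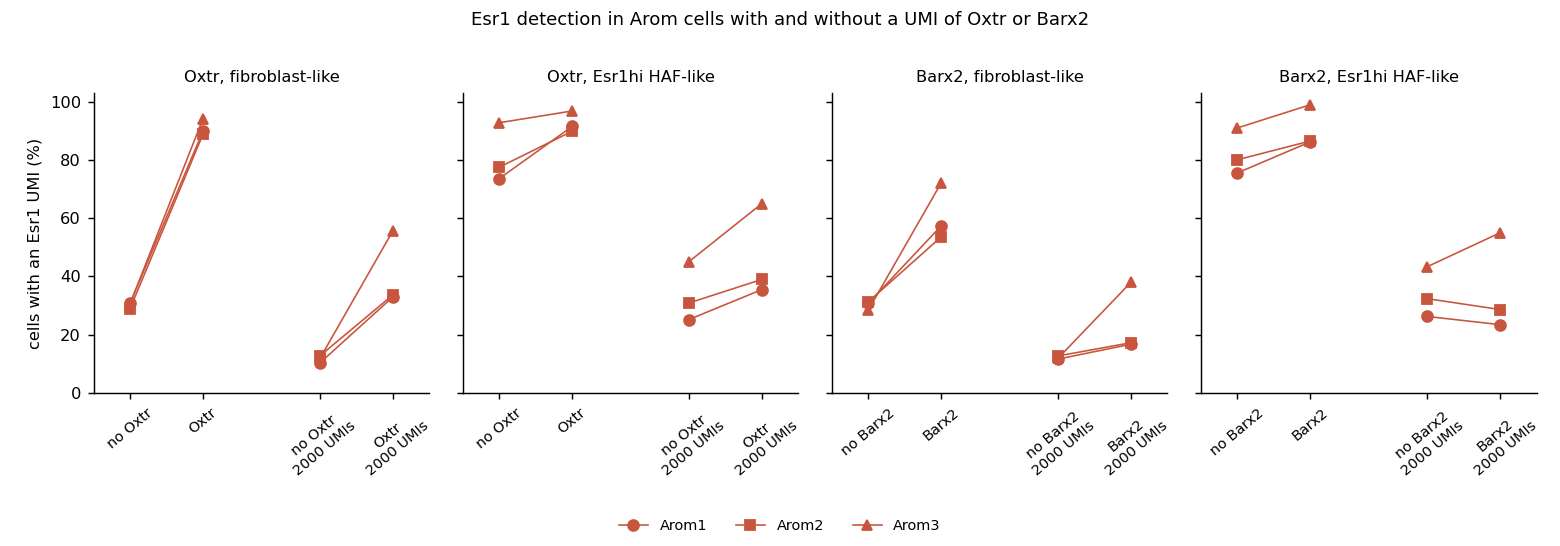
Percent of Aromhum cells with an Esr1 UMI (y axis) among cells without and with a UMI of Oxtr or Barx2 (x axis), as deposited and after thinning to 2000 UMIs per cell; 1 line per mouse. For Oxtr every line rises, in all fibroblast-like cells from 29.0% to 30.8% up to 88.8% to 94.2%; for Barx2 within thinned Esr1hi HAF-like cells the lines of Arom1 and Arom2 fall.

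Tacr1 lay in cells almost without Esr1. In cluster 19 an Esr1 UMI was found in 1.16% ± 0.350 of WT and 1.15% ± 0.430 of Aromhum cells (SD, n = 3 each). Of the cluster 19 cells with Tacr1, 2 of 408 in Aromhum mice and 1 of 33 in WT1 had Esr1. At this depth a low Esr1 level in these cells would not be detectable.

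The genes with the most similar levels over 95 sums of a cell type in a mouse are given as a description, over sums that share libraries. By Pearson's r of log2(CPM + 1), Oxtr was most like Lgr6 (0.85), Gdpd2 (0.82), Gm16485 (0.77), Clec2l (0.77) and Dnajc22 (0.76), and less like Esr1 (0.44). All 5 were at 0 in at least 1 library under the same cutoff. Lgr6, an R-spondin receptor, had 20.9, 23.8 and 7.34 CPM in the Esr1hi HAF-like cells of Arom1 to Arom3 and was at 0 in the WT libraries. Tacr1 was most like Glycam1 (0.79), Rnase1 (0.78), Fam167b (0.76), Sele (0.68) and Syt15 (0.67), and unlike Esr1 (-0.01). Glycam1, a ligand of L-selectin known from high endothelial venules, had 36.2 and 48.3 CPM in endothelial cells of Arom1 and Arom2 and was at 0 in the other 4 libraries. Barx2 was most like Slco5a1 (0.75), Ereg (0.67), Mpo (0.63), Ptpn5 (0.62) and Fyb2 (0.62), with Esr1 at 0.49. Under the same cutoff, Mpo and Ptpn5 were at 0 in the WT libraries, and Fyb2 in WT2 and WT3. Ereg, an EGF receptor ligand, had 107 and 102 CPM in Esr1hi HAF-like cells of Arom1 and Arom2 but 7.85 CPM in Arom3, below the 10.9 CPM of WT1.

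Of the 8 genes tested in the oxytocin and tachykinin lists, which leave out Oxtr and Tacr1, none was called higher in Aromhum fibroblast-like cells. Of 70 genes in 5 lists, 57 were tested, 2 were higher and 3 lower in Aromhum mice (edgeR, adjusted over all genes tested), where 7.43% of all genes were called higher and 5.39% lower. The split turned to 5 higher and 1 lower with the study's limits on cells but no upper limit on genes. In the oxytocin and vasopressin list 4 of 7 genes were tested and 1 was called. Avpr1a, a vasopressin receptor, fell by 1.43 on the log2 scale (SE 0.26, edgeR adjusted p = 0.0253), from 16.5, 13.6 and 10.9 to 6.04, 5.91 and 3.33 CPM. Oxt itself had 0.341 to 0.817 CPM in the 6 mice and was not called (edgeR adjusted p = 0.336). Neither were Lnpep, which degrades oxytocin, and Cd38. Avp, Avpr1b and Avpr2 are not in the table.

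In the tachykinin list 4 of 8 genes were tested and none passed with edgeR. Only Tac1 was under an unadjusted p of 0.05, and DESeq2 called it. Tac1, the precursor of substance P, had 304, 345 and 489 CPM in WT and 183, 116 and 315 CPM in Aromhum fibroblast-like cells, a log2 difference of -0.89 (SE 0.36, edgeR adjusted p = 0.136), and the groups overlapped. The peptidases Mme, Ece1 and Ace were not called. Tac4 was not tested, and Tac2, Tacr2 and Tacr3 are not in the table. The median log2 fold changes of the oxytocin and tachykinin lists were -0.44 and -0.46, against 0.02 over all genes.

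Of 23 genes of Gq signaling 22 were tested and 1 was called. It was Arrb2, an arrestin, which fell by 0.74 (SE 0.19, edgeR adjusted p = 0.0495). All 14 genes known from the contracting uterus were tested. The calcium channel gene Cacna1c rose by 0.81 (SE 0.10, edgeR adjusted p = 0.0174), from 5.41 ± 0.231 to 9.53 ± 0.314 CPM (SD, n = 3 each). The prostaglandin receptor gene Ptgfr fell by 0.71 (SE 0.18, edgeR adjusted p = 0.0487). Of 18 relatives and partners of Barx2 13 were tested, and the adhesion gene Ncam1, which the study lists among its Esr1hi HAF markers, rose by 1.55 (SE 0.21, edgeR adjusted p = 0.0191), from 20.6, 17.8 and 17.1 to 62.3, 62.4 and 37.5 CPM. The genotypes also differed in the fibroblast clusters they filled: cluster 5 held 0.285% of WT and 16.3% of Aromhum fibroblast-like cells, cluster 17 0.00935% and 7.28%, and cluster 7 20.4% and 5.75% (means of 3 mice). Differences between clusters and between genotypes cannot be told apart in these calls. All 5 calls were lost when any 1 mouse other than Arom3 was left out, and 24 list genes were called without Arom3.

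In Esr1hi HAF-like cells 13 of the 52 list genes tested were called, 4 higher and 9 lower, where 14% of all genes were called. With the replicate number as a block 21 were called. Without 1 mouse the number was 2 to 21, lowest without WT3 and highest without Arom3. Avpr1a fell by 2.79 (SE 0.36, edgeR adjusted p = 0.00558), from 11.9, 30.1 and 16.3 to 3.34, 2.19 and 2.73 CPM. Cd38, Ace, Mylk, Kcnma1 and Ptger3 were also lower, and Gja1, the connexin of uterine gap junctions, rose by 1.65 (SE 0.26, edgeR adjusted p = 0.0107), from 154 to 220 CPM in WT up to 393 to 715 CPM in Aromhum mice. Since the genotypes filled this class from different clusters, differences between clusters and between genotypes cannot be told apart here. Markers of 4 other types did not overlap between genotypes in these cells: pericyte markers summed to 67.0 to 121 CPM in WT and 42.5 to 58.9 CPM in Aromhum mice, glial markers to 15.8 to 43.5 and 9.17 to 10.5 CPM, mesothelial markers to 79.6 to 88.4 and 42.9 to 59.8 CPM, and macrophage markers to 8.04 to 15.8 and 17.4 to 24.1 CPM. Their part in these calls was not tested.

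In endothelial cells, which include clusters 15 and 20 with their fibroblast markers, 10 of the 50 list genes tested were called, 7 higher and 3 lower, where 14.5% of all genes were called. They included Ace, which cleaves substance P and rose by 0.69 (SE 0.14, edgeR adjusted p = 0.0227), and Arrb1, an arrestin, which rose by 1.12 (SE 0.15, edgeR adjusted p = 0.0101). Higher and lower calls numbered 0 and 1 in the oxytocin list, 1 and 0 in the tachykinin list and 1 and 1 in Gq signaling. In the uterine list they numbered 3 and 0, and among relatives and partners of Barx2 2 and 1. Cluster 19 made up a larger share of endothelial cells in each Aromhum mouse than in any WT mouse. Differences between clusters and between genotypes cannot be told apart in these calls. With the replicate number as a block 21 list genes and 3193 genes in all were called, against 1855 without it, and 0 to 15 list genes were called with 1 mouse left out, lowest without Arom1 and highest without Arom3. In cluster 19, where 1.36% of all genes were called, 2 of the 37 list genes tested were called. They were Ptgs2, which makes prostaglandin precursors (+2.63, SE 0.46, edgeR adjusted p = 0.0264), and Hlx (+1.09, SE 0.20, edgeR adjusted p = 0.0318). Both were lost when any 1 mouse other than Arom3 was left out. With the replicate number as a block 10 list genes, 5 higher and 5 lower, and 572 genes in all were called there, against 127 without it. Within the study's limits on cells 5 genes and no list gene were called.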

How the data were processed

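Per the labels and the study's methods, the authors aligned 10x Genomics 3′ reads with Cell Ranger 3.0.2 to mm10 with human CYP19A1 added and deposited raw UMI counts per gene and barcode. A filter on genes is not given in the sources used here. Oxtr, Tacr1, Barx2 and the gene lists were chosen with earlier results of these data known. All 63647 deposited barcodes were used, since the study's limits (200 to 2500 genes, at least 1000 UMIs, at most 5% mitochondrial UMIs) left 18852. Counts were normalized to 10000 and clustered with scanpy 1.11.5 (2000 variable genes, 30 components, Leiden resolution 0.8), without the 3 genes and Esr1. Clusters were named from markers. The top 5% of doublet scores per library were left out only as an alternative, because the automatic threshold marked 0 cells in WT2 and WT3.

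Counts were summed per mouse and cell type. CPM is the share of all UMIs of that sum in millionths. Genes were tested with edgeR 4.0.16 (quasi-likelihood, TMM, filterByExpr, Benjamini-Hochberg, threshold 0.05) and checked on simulated data. p-values measure the spread between 3 mice per genotype. DESeq2 1.42.0 and other settings were alternatives. Genes named are the list genes past the threshold with the largest change in fibroblast-like cells, the ligands and receptors of the first lists and the 5 most similar genes. Genes named in other cells were chosen after their values were seen. Same-numbered mice deviated together in 2 of 3 pairs in fibroblast-like cells (r = 0.21, -0.12 and 0.17) and in all 3 in endothelial cells (0.23, 0.11 and 0.39). For differently numbered mice r ranged from -0.30 to 0.24 in fibroblast-like cells and from -0.27 to 0.096 in endothelial cells. Intervals and limits of a count of 0 cover counting error only.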

Additional observations from a re-analysis of the deposited data

Results flagged for a closer look

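Ace, the peptidase that cleaves substance P, was called in opposite directions in a pair of cell types. Its log2 fold change was -1.36 in Esr1hi HAF-like cells (SE 0.25, edgeR adjusted p = 0.0155), where it had 98.3, 109 and 118 CPM in WT and 34.5, 32.2 and 60.4 CPM in Aromhum mice. In endothelial cells it was 0.69, with 74.7, 60.0 and 77.1 CPM in WT and 116, 96.9 and 129 CPM in Aromhum mice. Every Aromhum mouse lay below every WT mouse in the former and above in the latter. In both cell types the genotypes differed in the shares of clusters, and the difference between the cell types itself was not tested.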

How the results depend on the processing

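No fitted fold change of Oxtr, Tacr1 or Barx2 printed above for fibroblast-like or endothelial cells changed sign. No alternative was run for the other types. In endothelial cells as a whole Oxtr did not pass the filter. Its log2 fold change there was 4.43 with no filter and -0.14 with the WT zeros at the most they allow. The balance of higher and lower calls turned in cluster 19, in Esr1hi HAF-like cells (778 higher and 861 lower, 805 and 687 with no filter, 37 and 31 within the limits), in endothelial cells (1009 and 846, 46 and 56 without Arom1, 305 and 315 without WT3) and in the other fibroblast-like cells (134 and 101, 82 and 83 with genes above 0 in every library). Cluster 19 had 355 calls by DESeq2 and 548 with no filter. Genes called in fibroblast-like cells numbered 1791, 2814 by DESeq2, 1 with cells within the study's limits, and 6 to 4086 with 1 mouse left out (120 without WT1, 6 without WT2, 6 without WT3, 8 without Arom1, 14 without Arom2, 4086 without Arom3). In Esr1hi HAF-like cells 1639 became 68 within the limits, 930 without the upper limit on genes, and 247 to 2486 with 1 mouse left out. In the other fibroblast-like cells 235 became 1477 by DESeq2, 2 with no filter on low counts, 0 within the limits, 138 and 65 at Leiden resolutions 0.4 and 1.2, and 0 to 2806 with 1 mouse left out (edgeR, with 1755 genes under an unadjusted p of 0.05 within the limits and 2234 to 3237 where a left-out mouse gave 0). List genes called, 5, became 14 by DESeq2, 3 with no filter, 0 within the limits, 8 at Leiden 0.4 and 0 to 24 with 1 mouse left out. The cause was not tested. Whether the mouse numbers pair the mice was not settled, since same-numbered mice deviated together in endothelial cells but not in every pair in fibroblast-like cells. The replicate block gave 1344 calls and 7 list genes in the latter.

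Oxtr's log2 fold change in fibroblast-like cells, 7.82, was 4.72 with the WT zeros at the most they allow (chosen after seeing the data) and 7.04 to 13.07 with 1 mouse left out, the highest without WT2, the only WT mouse above 0. Within the limits, where no WT fibroblast-like cell had Oxtr, it was 7.41. Tacr1's in endothelial cells ranged from 3.70 to 11.47 with 1 mouse left out, the highest without WT1, the only WT mouse above 0. It was 3.38 with the WT zeros at the most they allow, 3.38 within the limits and 3.64 without the upper limit on genes. Barx2's, 3.56, was 2.26 within the limits. The share of Aromhum UMIs in fibroblast-like cells within the limits was 81.7% for Oxtr, 12.9% for Tacr1 (2.15%, 3.09% and, from 1 of 3 UMIs, 33.3% in Arom1 to Arom3; 5.72% without the upper limit) and 60.4% for Barx2. It was 97.6% for Oxtr with doublets left out. Within the limits 56.3% of Oxtr cells and 17.6% of Barx2 cells had Esr1, both as means of Arom1 and Arom2 only. Thinned, without these limits, the shares were 40.7% and 24.0% as means of the 3 mice. Only genes above 0 in every library gave 1801 calls.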
